A study of Homo sapiens with 12 samples.

Results

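The genes examined were the 37 gene IDs of the human mitochondrial genome among the 60675 gene IDs of the count table. Membership was set by position, as every ID on chromosome M, and comprises 2 rRNAs, 13 mRNAs and 22 tRNAs. Of these, 28 lie on the heavy strand and 9 on the light strand, the latter being MT-ND6 and 8 tRNAs. The values come from 12 RNA-seq libraries of HT29, an established line of human colorectal adenocarcinoma cells, with 3 libraries in each of 4 groups. The vehicle group received PBS with 2% DMSO, and the other groups received a water extract of the herb Aconitum carmichaeli Debeaux (ACD) for 24 h at a low dose of 20 µg/mL, a medium dose of 100 µg/mL or a high dose of 500 µg/mL, and these are called the low, medium and high groups. By the paper, the extract was itself prepared in PBS with 2% DMSO and was diluted on addition to the culture medium. All groups were of the same line, and the grouping rests on titles and treatment entries that name ACD, although a second, longer note describes an extract of Poria cocos. No source says that the 3 libraries of a group came from separate cultures, so p-values measure the spread between these samples, which may be technical.

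The mitochondrial genome is a small circular DNA that is copied and transcribed inside the organelle. Each strand is read as a long transcript, and the tRNAs that stand between most of the rRNAs and mRNAs are cut out of it, which frees the RNAs on either side. The mRNAs encode core subunits of respiratory complexes I, III and IV and of the ATP synthase (complex V), and the rRNAs build the mitochondrial ribosome that translates them. Mature mRNAs other than MT-ND6 carry short poly(A) tails, while the rRNAs carry only a few added bases, so the mixture of RNAs in a library also depends on how RNA was selected.

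The sequences at places where neighbouring genes meet show how closely the genes are packed. They were read from chromosome M of hg38, which holds 16569 bases, on its plus strand and are printed 5′ to 3′. Capitals mark the last 15 bases of the gene on the left and, in the first pair, the first 15 bases of the gene on the right, and lower case marks what lies between or, in the last, the neighbouring gene. The first spans MT-TV between the rRNA genes (chrM:1587-1685), the next spans MT-TL1 and the short gap before MT-ND1 (chrM:3215-3321), and the last is the place where the light strand gene MT-ND6 meets MT-ND5 with no base between them (chrM:14134-14163).
MT-RNR1 to MT-RNR2: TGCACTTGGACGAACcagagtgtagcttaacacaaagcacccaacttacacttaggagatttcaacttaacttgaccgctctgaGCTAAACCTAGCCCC
MT-RNR2 to MT-ND1: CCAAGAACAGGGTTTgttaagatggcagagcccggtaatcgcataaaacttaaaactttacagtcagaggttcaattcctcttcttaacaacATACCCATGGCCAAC
MT-ND5 to MT-ND6: CTCCTAATCACATAAcctattcccccgagc
Among the 13 mRNA genes, 6 have a length that is no multiple of 3 and end in an incomplete codon, which is ta in MT-ND1 and t in MT-ND2, MT-CO3, MT-ND3, MT-ND4 and MT-CYB. The overlapping neighbours are MT-ATP8 and MT-ATP6 with 46 shared bases, MT-ND4L and MT-ND4 with 7, MT-TI and MT-TQ with 3, and MT-ATP6 with MT-CO3 and MT-TC with MT-TY with 1 each. Counts in shared bases were divided between genes by estimation, so the values of MT-ATP8 and MT-ND4L depend on that step.

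The libraries held between 15941255 and 33866644 expected counts, and in all 12 the epithelial markers were detected (14 of 14). Their levels differed widely, and 9 of the 14 had a mean of at least 10 CPM. KRT8 was highest at 5669 to 7284 CPM. CDX1 was lowest at 0.951 to 1.53 CPM, a range that overlaps those given next for PECAM1 and COL1A1. Markers of leukocytes (PTPRC and CD3E among them), fibroblasts and endothelium were mostly under 1 CPM, with 2 of the astrocyte and fibroblast markers (S100B and COL1A2) at 0 and with the exceptions of LYZ at 1176 to 1821, CD14 at 2.27 to 4.57, PECAM1 at 1.34 to 2.61 and COL1A1 at up to 1.68. High-dose replicate 2 stood apart from the other libraries of its group, with an SD of 0.503 for its log2 difference from them against 0.103 to 0.293 in the other 11 libraries. Calls of mitochondrial genes that rest on it are therefore given with and without it. Levels are given as CPM (expected counts scaled to a common library total of 1000000 counts), with no other scaling, and fold changes are from edgeR, which scales by TMM. In bulk RNA, fewer cells and less RNA per cell cannot be told apart.

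The RNA of chromosome M took a larger share of the library at the high dose, and its makeup shifted from mRNA to rRNA. It took 10.1%, 8.74% and 9.50% of all counts in the vehicle libraries, 11.05%, 8.36% and 7.41% in the low group, 9.74%, 9.45% and 8.72% in the medium group and 16.6%, 15.8% and 14.0% in the high group. The high-dose libraries lay above all others, whereas the low and medium libraries overlapped those of vehicle. The slope of 1.85 percentage points per dose step had an exact permutation p of 0.00831 over 369600 assignments of the libraries (two-sided), or 0.0499 when adjusted over the 24 tests on such library measures. The counting error of these shares is small beside the spread between libraries, since no 95% Wilson interval was wider than 0.0358 percentage points.

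The rRNAs and the mRNAs went opposite ways. The rRNA share of all counts was 1.18% ± 0.04 (SD, n = 3) in vehicle, 1.09% ± 0.09 in the low group, 2.10% ± 0.12 in the medium group and 11.96% ± 0.63 in the high group. The mRNA share was 8.27% ± 0.66, 7.85% ± 1.83, 7.21% ± 0.41 and 3.52% ± 0.68 in the same order. By the exact permutation test of the slope, the rRNA share rose by 3.34 percentage points per step (p = 1.03e-04, adjusted 0.00130) and the mRNA share fell by 1.49 points per step (p = 0.00142, adjusted 0.0113). A comparison of 3 libraries with 3 cannot give an exact p under 0.1, the value of both measures at the medium and the high dose, where no library overlapped those of vehicle.

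As a share of chromosome M, the rRNAs were at 12.04%, 13.04% and 12.42% in vehicle, 22.3%, 22.9% and 22.5% in the medium group and 75.5%, 76.4% and 80.3% in the high group. There were 0.137 to 0.150 rRNA counts for each mRNA count in vehicle, 0.114 to 0.159 in the low group, 0.288 to 0.297 in the medium group and 3.08 to 4.08 in the high group. The mRNAs were also lower at the high dose when measured against counts from outside chromosome M, with 9.91%, 8.32% and 9.19% in vehicle and 4.88%, 4.44% and 3.22% at the high dose. That measure does not contain the rRNA counts, and its high-dose libraries did not overlap those of vehicle. The medium-dose libraries, at 8.38%, 8.05% and 7.41% on this measure, did overlap vehicle, unlike their mRNA share of all counts.

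**Figure D1:**
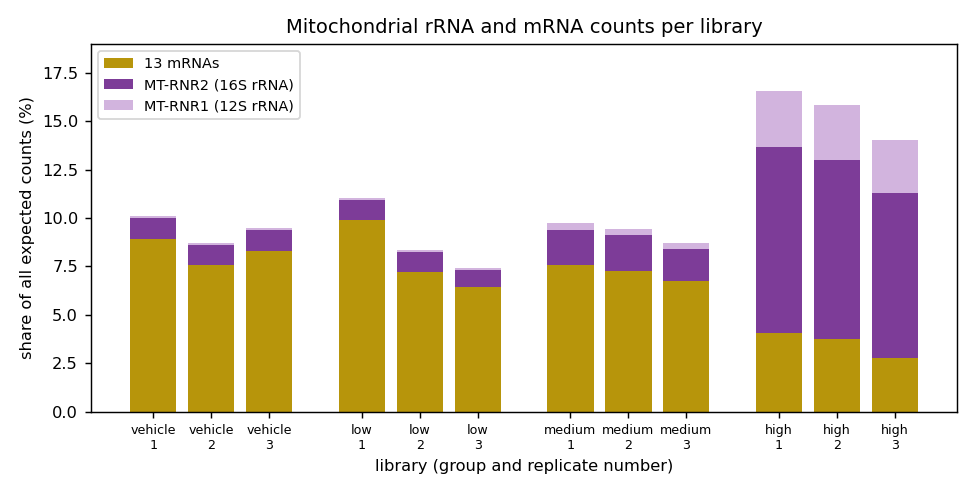
Share of all expected counts (%, y axis) taken by the 13 mRNAs, MT-RNR2 and MT-RNR1 in each of the 12 libraries (x axis, group and replicate number), stacked in 1 bar per library. The rRNAs take 1.14% to 1.22% of counts in the vehicle libraries and 11.3% to 12.5% in the high-dose libraries, while the mRNAs take 7.60% to 8.91% and 2.76% to 4.07%.

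Of the 37 genes, 15 passed the filter on low counts and were tested, namely both rRNAs and all 13 mRNAs, among 15374 genes in all. At the high dose, 10 of these 15 were called (fold change over 1.5, with an adjusted p under 0.05), where 2.93% of all tested genes were called. Both rRNAs rose, where 1.26% of tested genes rose, and 8 mRNAs fell, where 1.68% fell. The median log2 fold change of the 13 mRNAs was −1.24, beside 0.01 over all genes tested. CPM has a fixed sum, so a larger share of chromosome M leaves less for other genes. That share had a mean of 9.45% in vehicle and 15.5% at the high dose. By CPM, 23.0% of tested genes had all high-dose libraries below all vehicle libraries while 3.59% had them above. How far the fixed sum accounts for this was not tested. On this scale 12 of the 13 mRNAs lay below vehicle in every high-dose library, and MT-ND6 overlapped.

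MT-RNR1 (ENSG00000211459, chromosome M 648 to 1601) is the 12S rRNA of the small ribosomal subunit. Its level was 1380, 1273 and 1288 CPM in vehicle, 1161, 1223 and 1043 in the low group, 3359, 3448 and 2970 in the medium group and 28876, 28149 and 27281 in the high group. The medium and high libraries each lay above every vehicle library, and the low libraries lay below them, which held for 8.52% of tested genes. The log2 fold change from edgeR was 4.56 (SE 0.12, adjusted p = 1.13e-09), or 23.6-fold, at the high dose and 1.31 (SE 0.11, adjusted p = 5.02e-05), or 2.48-fold, at the medium dose. The low dose gave −0.22 (SE 0.11, adjusted p = 0.641).

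MT-RNR2 (ENSG00000210082, chromosome M 1671 to 3229) is the 16S rRNA of the large subunit. It was measured at 10812, 10123 and 10511 CPM in vehicle, 10144, 10220 and 8777 in the low group, 18414, 18176 and 16626 in the medium group and 96298, 92839 and 85442 in the high group. Here the low libraries overlapped vehicle, and the medium and high libraries did not. The log2 fold change was 3.27 (SE 0.12, adjusted p = 3.43e-08), or 9.64-fold, in the high group, 0.76 (SE 0.11, adjusted p = 0.00661), or 1.69-fold, in the medium group and −0.13 (SE 0.11, adjusted p = 0.827) in the low group. Without vehicle replicate 2, the medium-dose call of MT-RNR2 was lost and MT-RNR1 was the 1 gene called.

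The rRNAs, which are separated by the tRNA gene printed above and transcribed together, did not rise equally. There were 7.83, 7.95 and 8.16 MT-RNR2 counts for each MT-RNR1 count in vehicle, 8.74, 8.36 and 8.41 in the low group, 5.48, 5.27 and 5.60 in the medium group and 3.33, 3.298 and 3.13 in the high group. No group overlapped another in this ratio. Per kilobase of gene, the ratio of levels went from 4.79 to 4.99 in vehicle down to 1.92 to 2.04 at the high dose. The log2 ratio fell by 0.45 per dose step in the exact permutation test (p = 1.08e-04, adjusted 0.00130), although the low-dose mean of 3.09 was above the vehicle mean of 3.00.

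RNAs listed as lacking a poly(A) tail moved in both directions, and whether each of them lacked a tail in these cells was not tested. Of 38 such RNAs listed, 32 were matched and 10 passed the filter, of which 2 rose and 1 fell at the high dose, where 2.93% of all genes were called, and 1 rose at the medium and at the low dose, where 0.676% and 0.111% were called. The median log2 fold change of the 10 was −0.31 at the high, −0.39 at the medium and −0.24 at the low dose. RN7SL2, an RNA of the signal recognition particle, was at 4.93 to 9.05 CPM in vehicle, 68.4 to 119 in the low group, 60.9 to 96.9 in the medium group and 52.2 to 204 in the high group, and it was called as higher at all 3 doses. Its near copy RN7SL1 was at 4.40 to 7.38 CPM in vehicle, 33.1 to 42.6 in the low group and 27.6 to 40.5 in the medium group. In the high group it was at 32.4, 129 and 22.6, the highest value being that of replicate 2. RN7SL1 was called as higher at the high dose (log2 fold change 3.58, edgeR adjusted p = 0.00342), and its fold change without replicate 2 is not given here. At that dose the histone gene HIST1H2AC fell by 0.80 on the log2 scale (adjusted p = 0.0132). The summed level of the list was 29.5 to 39.8 CPM in vehicle, 118 to 179 in the low group, 104 to 154 in the medium group and 86.5 to 349 in the high group, with the highest value in replicate 2. RN7SL1 and RN7SL2 made up most of this sum in the treated libraries, and the rest of the list was at 19.003 to 23.3 CPM in vehicle, 16.97 to 18.3 in the low group, 15.4 to 16.6 in the medium group and 11.6 to 15.6 in the high group, below vehicle in every treated library. The full sum was above vehicle in every low-dose library, in which MT-RNR1 was below vehicle and MT-RNR2 overlapped it, and its part in the rRNA result was not tested.

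**Figure D2:**
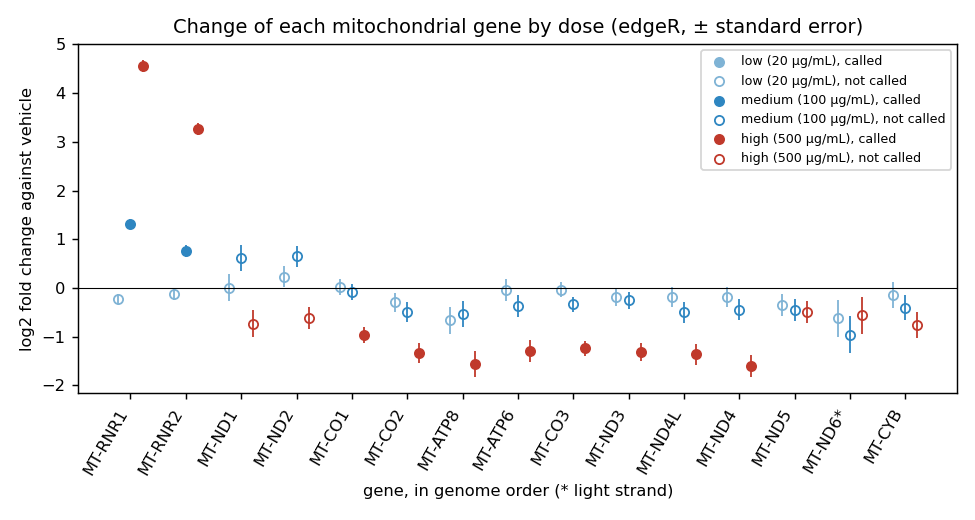
Log2 fold change against vehicle (y axis) of the 15 tested genes in genome order (x axis) at the low, medium and high dose, as points with ± 1 standard error from edgeR, filled where called. Only the rRNAs are far above 0 at the high dose, at 4.56 and 3.27, while the 13 mRNAs lie between −0.49 and −1.60.

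The mRNAs called at the high dose covered every mitochondrially encoded subunit of complexes IV and V and 3 of the 7 of complex I. In a fit of the high-dose and vehicle groups only, edgeR lost the calls of MT-CO1, MT-CO2, MT-ATP8 and MT-ND4L. For complex IV, cytochrome c oxidase, MT-CO1 was at 17622, 16733 and 17818 CPM in vehicle and 9499, 8241 and 6313 at the high dose. MT-CO2 was at 11445, 9064 and 9345 against 4121, 3976 and 2527, and MT-CO3 was at 16118, 13351 and 13066 against 6095, 5428 and 4808. In each of the 3 genes the groups did not overlap. MT-CO1 fell by 0.97 on the log2 scale (SE 0.17, edgeR adjusted p = 0.00422), MT-CO2 fell by 1.34 (SE 0.21, adjusted p = 0.00216) and MT-CO3 fell by 1.24 (SE 0.15, adjusted p = 4.60e-04).

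For complex V, MT-ATP6, which forms part of the proton channel, was at 8482, 6929 and 7751 CPM in vehicle and 3568, 2684 and 2339 at the high dose. MT-ATP8, a small subunit of the membrane part read from the same transcript, was at 872, 538 and 364 against 183, 214 and 149. The vehicle libraries of MT-ATP8 were spread more widely than those of MT-ATP6, and neither gene's groups overlapped. MT-ATP6 fell by 1.29 (SE 0.23, adjusted p = 0.00523 by edgeR) and MT-ATP8 fell by 1.56 (SE 0.28, adjusted p = 0.00542) on the log2 scale.

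Complex I, the NADH dehydrogenase, takes 7 mitochondrial subunits. MT-ND4 was at 11024, 9409 and 11045 CPM in vehicle and 4009, 3021 and 2373 at the high dose, and MT-ND4L, read from the same transcript, was at 789, 993 and 1105 against 339, 434 and 238. MT-ND3 was at 2458, 1836 and 2248 against 1050, 663 and 691. MT-ND4 fell by 1.60 on the log2 scale (SE 0.22, edgeR adjusted p = 9.68e-04), which left 33.0% of the vehicle level, MT-ND4L fell by 1.36 (SE 0.22, adjusted p = 0.00284) and MT-ND3 fell by 1.31 (SE 0.18, adjusted p = 0.00114). MT-ND1, MT-ND2, MT-ND5 and MT-ND6 were not called, and neither was MT-CYB of complex III. These 5 genes had log2 fold changes between −0.49 and −0.75, with adjusted p between 0.132 and 0.459 in edgeR.

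Among the 5 genes not called at the high dose, MT-CYB, the cytochrome b of complex III, depended on 1 library. It was at 3770 CPM in replicate 1, 5865 in replicate 2 and 2701 in replicate 3 of the high dose, and between 6836 and 8338 in vehicle. Without high-dose replicate 2, its log2 fold change was −1.14 (SE 0.25, edgeR adjusted p = 0.0158) in place of −0.75 (adjusted p = 0.132), and 11 genes were called. MT-ND2 also turned on 1 library, since it was called at the high dose when low-dose replicate 1 was left out, again with 11 genes called. That library is in neither group of the contrast and enters through the joint fit. MT-ND5 was at 2401, 2442 and 1381 CPM at the high dose and between 3014 and 3456 in vehicle.

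**Figure D3:**
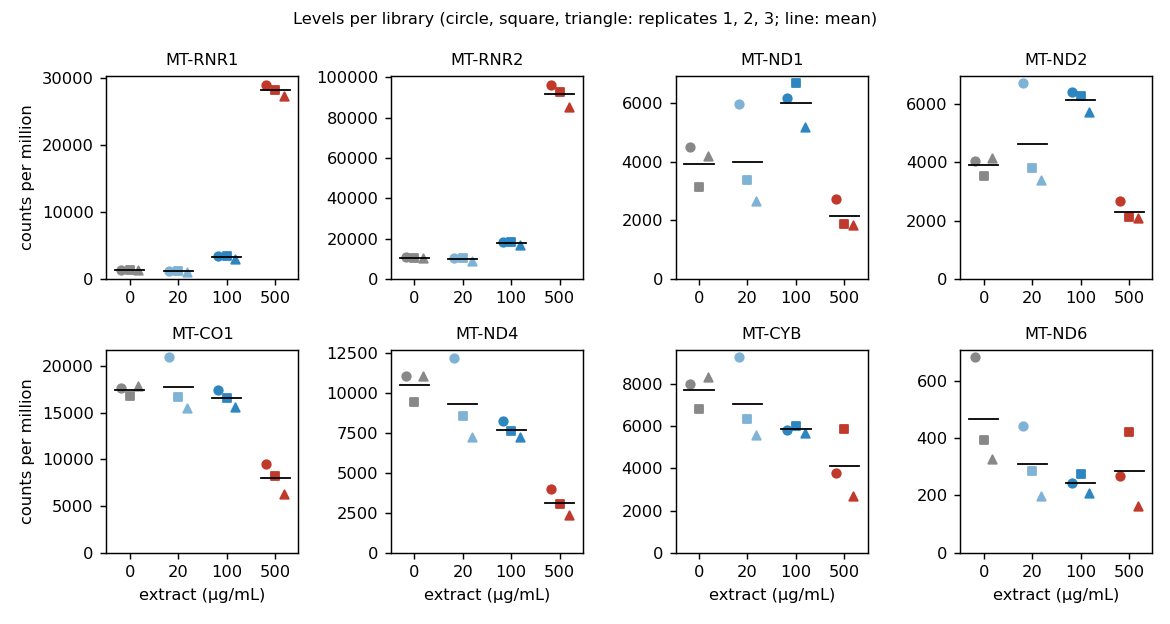
Level in CPM (y axis, from 0) by dose of extract (x axis, µg/mL) for 8 genes, with 1 point per library, marked by replicate number, and a line at the mean of each group of 3. MT-RNR1 and MT-RNR2 are highest at 500 µg/mL, MT-ND1 and MT-ND2 are highest in mean at 100 µg/mL, and replicate 2 of the highest dose stands above the others in MT-CYB and MT-ND6.

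At the medium dose, only the 2 rRNAs of the 15 tested genes were called, where 0.676% of all tested genes were called and 0.384% were called as higher. The 13 mRNAs had a median log2 fold change of −0.40, beside −0.01 over all genes tested, and none was called by edgeR or by DESeq2, although 6 had an unadjusted p under 0.05. MT-ND1 and MT-ND2, the genes next downstream of the rRNAs, differed in sign from the other 11. MT-ND1 was at 4500, 3122 and 4180 CPM in vehicle and 6189, 6692 and 5187 at the medium dose, with a log2 fold change of 0.61 (SE 0.27, edgeR adjusted p = 0.411). MT-ND2 was at 4058, 3545 and 4136 against 6400, 6264 and 5715, with a log2 fold change of 0.65 (SE 0.22, adjusted p = 0.266).

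For MT-ND1 and MT-ND2 the medium-dose libraries all lay above those of vehicle, which held for 13.5% of all tested genes, and 8 mRNAs lay below vehicle in every medium-dose library, which held for 14.7%. MT-ND2 was called at this dose when low-dose replicate 1 was left out or when the 2 groups were fitted alone. From the medium to the high dose, where 0.488% of tested genes were called, MT-ND1 fell by 1.35 (SE 0.28, edgeR adjusted p = 0.0455) and MT-ND2 fell by 1.27 (SE 0.22, adjusted p = 0.0192) on the log2 scale. The same contrast called MT-CO1, MT-CO3, MT-ND3 and MT-ND4 as lower, by 0.90 to 1.15, where 0.169% of genes were lower, and both rRNAs as higher, where 0.319% were higher, by 3.25 for MT-RNR1 and 2.51 for MT-RNR2. The mRNA calls of that contrast depended on single libraries, since 2 genes, the rRNAs, were called without high-dose replicate 3 or without any 1 of the medium-dose libraries. There were 5 calls without vehicle replicate 2, vehicle replicate 3 or low-dose replicate 2, and 4 without high-dose replicate 2.

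At the low dose, none of the 15 genes was called, where 0.111% of tested genes were called. DESeq2 also called 0, and 1 gene, MT-ATP8, had an unadjusted p under 0.05 in edgeR, with a log2 fold change of −0.67. The libraries of this group differed among themselves, with low-dose replicate 1 highest in MT-ND1 (5962 CPM against 3377 and 2654), MT-ND2 (6736 against 3803 and 3379) and MT-ATP6 (10558 against 6311 and 5934). All 13 mRNAs overlapped vehicle on this scale. Against the low dose, where 1.58% of tested genes were called, the high dose gave calls for both rRNAs and for MT-CO1, MT-CO2, MT-CO3, MT-ATP6, MT-ND3, MT-ND4 and MT-ND4L as lower. In that contrast 0.748% of tested genes were called as higher and 0.833% as lower.

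A test of the dose rank over all 12 libraries called 10 of the 15 genes, where 5.74% of all genes tested were called, 2.76% as rising and 2.98% as falling. The rRNAs had slopes per step of 1.52 for MT-RNR1 (SE 0.19, adjusted p = 3.80e-04) and 1.08 for MT-RNR2 (SE 0.14, adjusted p = 6.03e-04) on the log2 scale in edgeR. Their steps were uneven, and the low dose did not lie above vehicle. Against vehicle, MT-RNR1 was at −0.22, 1.31 and 4.56 and MT-RNR2 at −0.13, 0.76 and 3.27 at the low, medium and high dose. DESeq2 did not call MT-RNR2 for this trend (adjusted p = 0.0987) and called MT-CYB. In edgeR, the same 8 mRNAs as at the high dose fell, from 0.29 per step in MT-CO1 (adjusted p = 0.0492) to 0.50 in MT-ND4 (adjusted p = 0.00674). The call of MT-CO1 was lost in 10 of the 12 fits that left out 1 library, with the replicate block, with library sizes that leave out chromosome M and without the filter on low counts, where its adjusted p was 0.0501 to 0.128. Without high-dose replicate 3, 6 of the mitochondrial genes were called. Over all genes, 882 were called for the trend, 2744 of 15674 without high-dose replicate 2, 512 without high-dose replicate 1, 452 without high-dose replicate 3, 520 without vehicle replicate 2 and 601 to 788 without any other library.

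The light strand mRNA MT-ND6 (ENSG00000198695, chromosome M 14149 to 14673), a complex I subunit, had the largest standard error of the 15 tested genes in each comparison of a dose with vehicle. It was at 682, 394 and 325 CPM in vehicle, 442, 284 and 199 in the low group, 244, 274 and 208 in the medium group and 269, 421 and 164 in the high group. The medium-dose libraries lay below all vehicle libraries, and the other groups overlapped vehicle. Its log2 fold change was −0.62 (SE 0.38, edgeR adjusted p = 0.747) in the low group, −0.96 (SE 0.38, adjusted p = 0.348) in the medium group and −0.56 (SE 0.38, adjusted p = 0.459) in the high group.

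Against the heavy strand, there were 7.72, 5.21 and 3.93 MT-ND6 counts per 1000 counts of the 12 heavy strand mRNAs in vehicle, 4.48, 3.95 and 3.11 in the low group, 3.24, 3.77 and 3.08 in the medium group and 6.66, 11.4 and 5.98 in the high group. The high-dose libraries lay above all low and medium libraries and overlapped vehicle. The log2 ratio had a slope of 0.13 per dose step with an exact permutation p of 0.404. Without high-dose replicate 2 the slope was −0.0026. The library kit keeps strand, but the strand setting of the counting is not given in the sources used here, so RNA from the opposite strand of MT-ND6 may be included.

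**Figure D4:**
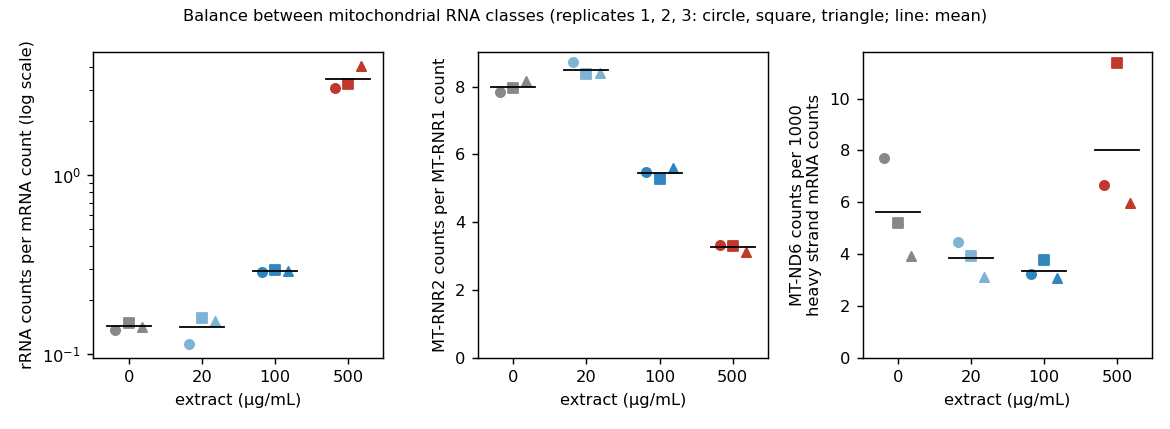
Ratios of expected counts by dose of extract (x axis, µg/mL) in the 12 libraries, as points marked by replicate number with a line at the group mean. The rRNA to mRNA ratio (log axis) reaches 3.08 to 4.08 at the highest dose, the MT-RNR2 to MT-RNR1 ratio is 7.83 to 8.16 in vehicle and 3.13 to 3.33 at the highest dose, and MT-ND6 per 1000 heavy strand mRNA counts is between 3.08 and 11.4.

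As shares of the counts of chromosome M, a total that contains the rRNA counts, all 13 mRNAs lay below vehicle in every high-dose library, and at the medium dose 9 did so while MT-ND1 and MT-ND2 lay above. These shares are given by library as a description. MT-CO1 made up 17.4%, 19.2% and 18.8% in vehicle, 18.999%, 19.9% and 20.9% in the low group, 17.9%, 17.5% and 17.8% in the medium group and 5.73%, 5.20% and 4.50% in the high group. Its low and medium libraries overlapped vehicle. MT-CO2 took 11.3%, 10.4% and 9.84% in vehicle, 8.97%, 9.22% and 9.39% in the low group, 7.80%, 7.28% and 7.71% in the medium group and 2.48%, 2.51% and 1.80% in the high group. MT-CO2 was below vehicle in each treated group. MT-CO3 took 15.9%, 15.3% and 13.8% in vehicle, 14.8%, 16.6% and 15.7% in the low group, 11.5%, 11.8% and 13.02% in the medium group and 3.67%, 3.43% and 3.43% in the high group.

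MT-ATP6 held 8.38%, 7.93% and 8.16% in vehicle, 9.56%, 7.55% and 8.01% in the low group, 6.81%, 6.23% and 6.26% in the medium group and 2.15%, 1.69% and 1.67% in the high group. MT-ATP8 held 0.861%, 0.616% and 0.384% in vehicle, 0.387%, 0.478% and 0.415% in the low group, 0.429%, 0.474% and 0.421% in the medium group and 0.110%, 0.135% and 0.106% in the high group. The low and medium libraries of MT-ATP8 overlapped vehicle, whereas MT-ATP6 was below it in each medium-dose library. MT-CYB, of complex III, held 7.90%, 7.82% and 8.78% in vehicle, 8.42%, 7.56% and 7.57% in the low group, 5.98%, 6.39% and 6.52% in the medium group and 2.27%, 3.70% and 1.92% in the high group.

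Of the complex I genes, those next to the rRNAs stood above vehicle at the medium dose. MT-ND1 accounted for 4.44%, 3.57% and 4.40% in vehicle, 5.40%, 4.04% and 3.58% in the low group, 6.35%, 7.08% and 5.95% in the medium group and 1.63%, 1.19% and 1.32% in the high group. MT-ND2 accounted for 4.01%, 4.06% and 4.35% in vehicle, 6.10%, 4.55% and 4.56% in the low group, 6.57%, 6.63% and 6.55% in the medium group and 1.62%, 1.35% and 1.50% in the high group. The low-dose libraries of MT-ND2 were also above vehicle, and those of MT-ND1 overlapped it. MT-ND3 accounted for 2.43%, 2.10% and 2.37% in vehicle, 1.99%, 2.03% and 2.58% in the low group, 2.06%, 1.89% and 1.94% in the medium group and 0.633%, 0.419% and 0.492% in the high group. The share of MT-ND4 was 10.9%, 10.8% and 11.6% in vehicle, 11.04%, 10.2% and 9.72% in the low group, 8.43%, 8.07% and 8.32% in the medium group and 2.42%, 1.91% and 1.69% in the high group. That of MT-ND4L was 0.779%, 1.14% and 1.16% in vehicle, 0.904%, 0.895% and 1.10% in the low group, 0.765%, 0.756% and 0.665% in the medium group and 0.204%, 0.274% and 0.170% in the high group. MT-ND3, MT-ND4 and MT-ND4L were below vehicle at the medium dose and overlapped it at the low dose. For MT-ND5 it was 2.98%, 3.69% and 3.64% in vehicle, 2.78%, 2.87% and 2.94% in the low group, 2.81%, 2.67% and 2.10% in the medium group and 1.45%, 1.54% and 0.984% in the high group. For MT-ND6 it was 0.674%, 0.450% and 0.343% in vehicle, 0.400%, 0.339% and 0.269% in the low group, 0.251%, 0.289% and 0.238% in the medium group and 0.162%, 0.266% and 0.117% in the high group. MT-ND5 was below vehicle in all treated libraries, and MT-ND6 overlapped vehicle at the low dose.

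Within the pool of the 13 mRNAs, the composition shifted between genes, which takes out the change in the pool as a whole. MT-ND2 made up 4.56%, 4.67% and 4.97% of mRNA counts in vehicle, 6.79%, 5.27% and 5.26% in the low group, 8.46%, 8.60% and 8.45% in the medium group and 6.60%, 5.71% and 7.60% in the high group, above vehicle in each treated library. MT-ND1 made up 5.05%, 4.11% and 5.03% in vehicle and 8.18%, 9.18% and 7.67% at the medium dose, and its low and high libraries overlapped vehicle. MT-ND4 made up 12.4%, 12.4% and 13.3% in vehicle, 12.3%, 11.9% and 11.2% in the low group, 10.9%, 10.5% and 10.7% in the medium group and 9.85%, 8.08% and 8.59% in the high group, with each treated group below vehicle.

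MT-ND5, a large subunit of complex I, made up 3.38%, 4.25% and 4.16% of mRNA counts in vehicle and 5.90%, 6.53% and 5.00% at the high dose, with no overlap. MT-CO2 made up 11.2% to 12.9% in vehicle and 9.14% to 10.8% over the 9 treated libraries. The share of MT-CYB at the high dose was 9.26%, 15.7% and 9.77%, the middle value being that of replicate 2, against 8.98% to 10.0% in vehicle. MT-CO1 was the largest part of the pool in all groups, at 19.8% to 24.1%. These shares are descriptions and were not tested gene by gene.

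**Figure D5:**
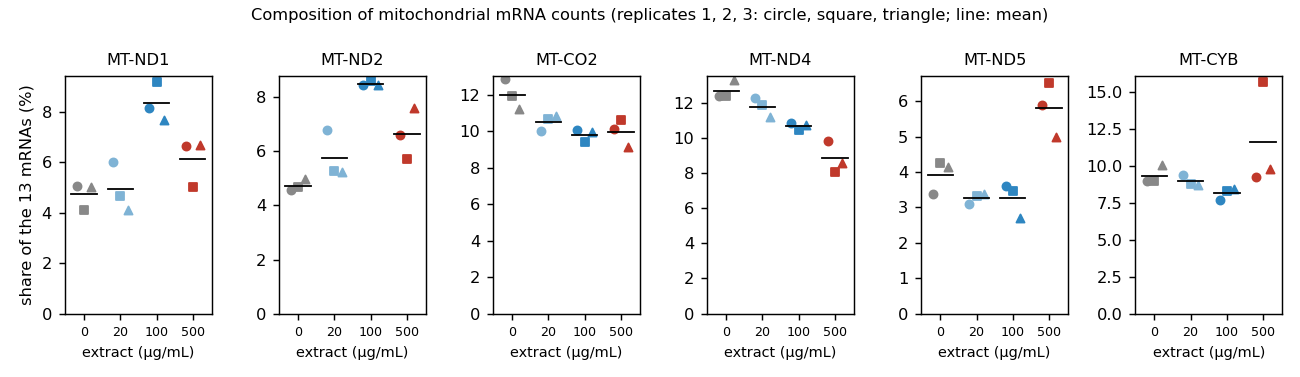
Share of the counts of the 13 mRNAs (%, y axis from 0) held by 6 of them, by dose of extract (x axis, µg/mL), with 1 point per library, marked by replicate number, and a line at the group mean. MT-ND1 and MT-ND2 peak at 100 µg/mL, MT-ND4 is lowest at 500 µg/mL, and MT-CYB has 1 library at 15.7% at that dose.

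Levels were compared between genes as CPM per kilobase. The rRNAs and MT-ND6 differ from the other mRNAs in their tails, and the selection of RNA may have favoured some of them. The order is thus one of counts and may not be that of RNA amounts in the cells. In vehicle, MT-CO3 was highest at 18084 ± 2150 CPM per kilobase (SD, n = 3), followed by MT-CO2 at 14549 ± 1903, MT-ATP6 at 11338 ± 1141 and MT-CO1 at 11278 ± 375. MT-CO3 and MT-CO2 overlapped, as did MT-ATP6 and MT-CO1, and the latter pair lay below MT-CO2. MT-ND4, MT-CYB, MT-RNR2 and MT-ND3 followed at 7614 to 6303, each overlapping the next, and MT-ND1, MT-ND2, MT-ND4L, MT-ATP8 and MT-ND5 at 4115 to 1784, again each overlapping the next. The lowest were MT-RNR1 at 1377 ± 61 and MT-ND6 at 890 ± 361, each apart from its neighbour above.

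At the high dose, that order began with MT-RNR2 at 58708 ± 3557 and MT-RNR1 at 29457 ± 837 CPM per kilobase, which were apart from each other and from MT-CO3 at 6944 ± 821. MT-RNR1 thus went from rank 14 of 15 in vehicle to rank 2. At the medium dose it was at rank 11 with 3416 ± 266, and MT-RNR2 was at rank 2 with 11378 ± 623. MT-ND6 was the lowest of the 15 in all 4 groups, and its high-dose libraries overlapped those of MT-ATP8.

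The 22 tRNAs were nearly absent from the counts. They are 59 to 75 bases long, shorter than the 100-base reads, and held 20 counts in all over the 12 libraries. There were 0 tRNA counts in each vehicle and low-dose library, 1, 4 and 0 in the medium-dose libraries and 2, 11 and 2 in the high-dose libraries. A count of 0 allows a level of up to 3 counts, or 0.0943 to 0.164 CPM in the vehicle libraries, which covers counting error only. Of the 22, 16 had no count in any library, and MT-TM (9 counts, 8 of them in high-dose replicate 2), MT-TA (6), MT-TQ (2), MT-TL1, MT-TN and MT-TE (1 each) had the rest. None reached a mean of 10 counts per library or the filter for testing. The tRNA share of chromosome M had an exact permutation p of 0.0208 for its slope over dose, or 0.10 when adjusted over the 24 tests. With 20 counts in all, from RNAs shorter than the reads, a difference in tRNA level could not be judged.

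The nuclear genes whose products transcribe, cut and stabilise mitochondrial RNA were measured for comparison. Of 37 such genes tested, edgeR and DESeq2 each called 0 at the high, medium and low dose, where 2.93%, 0.676% and 0.111% of all tested genes were called, so that 0 of 37 is near the background. An unadjusted p under 0.05 was found for 4, 3 and 1 of them. Their median log2 fold change at the high dose was 0.12. The smallest p at that dose belonged to PRORP, the nuclease that cuts the front end of mitochondrial tRNAs (log2 fold change 0.24, edgeR adjusted p = 0.0868), LRPPRC, which stabilises mitochondrial mRNAs (0.20, adjusted p = 0.112), and FASTKD1, an RNA-binding protein (0.33, adjusted p = 0.137).

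The nuclear subunits of the same respiratory complexes did not pass the test at any dose. At the high dose 0 of 37 genes of complex I, 0 of 9 of complex III, 0 of 11 of complex IV and 0 of 16 of complex V were called by edgeR or DESeq2, which is near the 2.93% of all tested genes called at that dose, and 1 of them, ATP5F1D of complex V, had an unadjusted p under 0.05. Their medians at the high dose were 0.03, 0.07, 0.02 and 0.02 on the log2 scale, beside −1.24 for the mitochondrial mRNAs. The 3 genes with the smallest p in each list had log2 fold changes of −0.19 (NDUFA3), 0.14 (NDUFA10) and −0.32 (NDUFA2) for complex I, 0.20 (CYC1, cytochrome c1), 0.33 (UQCRB) and 0.08 (UQCRC2) for complex III, −0.17 (COX8A), 0.26 (COX7B) and −0.10 (COX6B1) for complex IV, and −0.24 (ATP5F1D), −0.18 (ATP5MC2) and 0.22 (ATP5F1B) for complex V, with adjusted p between 0.239 and 0.721 in edgeR. At the medium dose the medians were −0.23, −0.12, −0.24 and −0.18, with 0 calls (0.676% of all genes) and 2, 0, 1 and 1 genes at an unadjusted p under 0.05. At the low dose they were −0.24, −0.13, −0.24 and −0.17, with 0 calls (0.111% of all genes) and 2, 0, 0 and 1 such genes.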

How the data were processed

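The deposited values are RSEM 1.3.3 expected counts per gene, which the authors made from trimmed reads (Trim Galore) aligned by STAR and did not normalize, with annotation GRCh38.84. Per the labels, the kit was directional, and the strand setting of RSEM is not given in the sources used here. Reads shared with nuclear copies were divided by RSEM. Expected counts were rounded and tested in edgeR 4.0.16 (R 4.3.3) by the quasi-likelihood test with filterByExpr, TMM and robust estimation, with all 12 libraries in 1 fit and Benjamini-Hochberg adjustment over 15374 genes for each contrast. Standard errors came from the F statistic. Called genes had a fold change over 1.5 with an adjusted p under 0.05, and the dose trend had no minimum fold. DESeq2 1.42.0, the tool of the study, was an alternative. Library measures used the unrounded counts, with exact two-sided permutation tests (scipy 1.17.1) adjusted over 24 tests. The tests were checked on simulated counts. Full statistics were given for the rRNAs, MT-ND6 and every member called in any contrast, per-library values for these, shares of chromosome M for the 13 mRNAs, and 3 genes of each nuclear list by smallest high-dose p. The members and lists were chosen with earlier results of these data known. Replicate numbers did not pair the libraries (5 of 18 pairs of libraries with the same number had a correlation over 0.1). Gene positions and sequences were read from GENCODE 44 and hg38, and the paper writes its build as GRCh38 (hg19).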

Additional observations from a re-analysis of the deposited data

How the results depend on the processing

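Among library measures, the 2 denominators that leave out mitochondrial counts moved the differences from vehicle. With counts outside chromosome M as denominator, the chromosome M share differed by 7.90 percentage points at the high dose and the rRNA share by 1.01 at the medium and 12.9 at the high dose, and with counts other than MT-RNR1 and MT-RNR2 the first was 8.03 and the last 12.4, in place of 6.03, 0.92 and 10.8. Fitted on the 2 groups alone, edgeR called 6 mitochondrial genes at the high dose (MT-CO1, MT-CO2, MT-ATP8 and MT-ND4L were lost) and 2 each for high against medium and high against low. Without the low-count filter, 6 were called for the trend and 5 for high against medium. Leaving out 1 library gave 10 to 11 calls at the high dose, 1 to 3 at the medium dose, 6 to 10 for the trend, 2 to 9 for high against medium and 7 to 10 for high against low. The tRNA slope was 2.2e-05 to 7.3e-05 percentage points when 1 library was left out, with an exact permutation p of up to 0.0689, and the MT-ND6 slope was 0.25 without vehicle replicate 1 and turned to −0.0026 without high-dose replicate 2. MT-ND6 against the medium dose turned from 0.39 to −0.047 without that library (0.69 without high-dose replicate 3), and against the low dose from 0.05 to −0.39 without it and to −0.17 without low-dose replicate 3 (0.44 without low-dose replicate 1).

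With the replicate number as a block, although the numbers did not pair the libraries (correlations −0.50 to 0.37, 1 of 12 libraries closest to its own number), 10 genes were called at the high dose, 2 at the medium dose, 0 at the low dose, 9 for the trend, 10 for high against medium and 9 for high against low. Over all genes, 451 were called at the high dose, 172 on the 2 groups alone and 768 without high-dose replicate 2. At the low dose 0 mitochondrial genes were called under each alternative. With 3 libraries a group, changes near the 1.5-fold limit in genes such as MT-CYB and MT-ND6 were not resolved. The causes of these shifts were not tested.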

Other observations

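Nuclear copies of mitochondrial genes share reads with the originals. Of 391 copies listed, 8 passed the filter, and together the copies held 1.12% to 1.41% as many counts as chromosome M in the vehicle, low-dose and medium-dose libraries and 0.336% to 0.431% at the high dose. The chromosome M total contains the rRNA counts, a mean of 12.5% of it in vehicle and 77.4% at the high dose. The lower percentage at the high dose is thus no measure of the copies against the mRNAs, which was not taken. MTATP6P1 was at 1189, 1041 and 954 CPM in vehicle and 523, 555 and 376 at the high dose, where it fell by 0.98 on the log2 scale (SE 0.17, edgeR adjusted p = 0.00528). MTND4P12, a copy of MT-ND4, fell by 1.93 (SE 0.47, adjusted p = 0.0331), and MTCO2P12, at 0.602 CPM in vehicle, had a log2 fold change of −2.25 (SE 0.65, adjusted p = 0.0663). MTND2P28, a copy of MT-ND2, was at 101, 126 and 151 CPM in vehicle and 245, 257 and 235 at the medium dose, where it rose by 0.97 on the log2 scale (adjusted p = 0.0280), and MT-ND2 itself was not called at that dose. How far these counts are reads of the mitochondrial genes was not tested.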
